A study of Mus musculus with 7 samples.

Results

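The ketone body and GABA-shunt genes are 8 mouse genes taken by name: *Bdh1*, *Oxct1* and *Acat1* of ketone body oxidation, the carrier gene *Slc16a1*, *Abat* and *Aldh5a1* of the GABA shunt, and *Acss1* and *Acsm5*, which encode synthetases that couple short or medium acids to coenzyme A. All 8 were in the count table of 20927 entries, and all 8 were among the 13894 genes tested, for which 3 or more libraries had to hold 10 or more counts. RNA of the left ventricle was sequenced from 3 WT mice, which carry the numbers 1, 3 and 4, and from 4 mice homozygous for titin A178D, which carry 1 to 4, with 1 library per heart, to find which transcripts differ between the genotypes. A178D replaces an alanine near the amino-terminal end of titin, the giant sarcomere protein, with an aspartate. All 7 animals were labelled C57BL/6J. The allele was made by CRISPR-Cas9 in embryonic stem cells of a C57BL/6N line and was bred onto C57BL/6J for several generations. The labels give no age or sex for these 7 hearts. The libraries held between 33080675 and 54245530 counts.

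Ketone bodies are made mainly in the liver and are burned in heart, muscle and brain. In the mitochondria of a heart cell, 3-hydroxybutyrate is oxidised to acetoacetate, which receives coenzyme A from succinyl-CoA and is then split into acetyl-CoA for the citric acid cycle. The GABA shunt is a route around one stretch of that cycle, from 2-oxoglutarate through glutamate and GABA to succinate, and it is best known from neurons.

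Of the 8 genes, *Bdh1* and *Abat* were called higher in A178D than in WT hearts, and none was called lower. Genes were called by the quasi-likelihood F test of edgeR where the p, adjusted by Benjamini and Hochberg's method over all tested genes, was under 0.05. Over all tested genes, 1.04% were called higher, 1.31% lower and 2.35% in either direction. At an unadjusted p under 0.05 the same test listed 4 of the 8 genes, *Bdh1* and *Abat* on the higher side and *Slc16a1* and *Acss1* on the lower side, against 16.7% of all tested genes. DESeq2's Wald test also called 2 of the 8 genes higher and 0 lower, while it called 2.20% of the 13894 genes higher and 2.73% lower. For 2 of the 8 genes all A178D hearts exceeded all WT hearts, which held for 7.61% of the tested genes, and for 2 all were below, which held for 8.52%. The median log2 fold change (A178D over WT) was 0.04 over the 8 genes and 0.00 over all tested genes. The 8 genes and the lists below were chosen with earlier results of these data known. Setting their counts beside the shares of all tested genes is thus a description and no independent support. In tissue RNA of this kind, more cells of a type and more RNA per cell cannot be told apart.

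*Bdh1* encodes the mitochondrial 3-hydroxybutyrate dehydrogenase, which catalyses the first step of ketone body oxidation, and it lies on chromosome 16 from 31422280 to 31458901 (GRCm38, plus strand). In the WT hearts numbered 1, 3 and 4, its level was 209, 226 and 222 CPM (counts scaled to 1e6 per library, on library sizes from TMM). In the A178D hearts numbered 1 to 4, the level was 284, 279, 265.5 and 307 CPM. The lowest A178D heart stood above the highest WT heart, so the genotypes did not overlap. The means were 219 ± 8.99 CPM (SD, n = 3) and 284 ± 17.1 CPM (SD, n = 4). A178D differed from WT by 0.37 ± 0.07 on the log2 scale (SE; adjusted p = 0.0154, edgeR quasi-likelihood F test, Benjamini-Hochberg), a ratio of 1.30 with a 95% interval of 1.17 to 1.44. By its p, *Bdh1* ranked 102 of 13894 genes, and by the size of its log2 fold change 1782. The call depended on single hearts, since the same edgeR test gave an adjusted p of 0.0714 with WT replicate 3 left out, 0.0635 with WT replicate 4 left out and 0.0555 with A178D replicate 1 left out. Over the 7 fits that each left out 1 heart, the adjusted p ranged from 0.0148 to 0.0714 and the log2 fold change from 0.34 to 0.40.

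*Oxct1* encodes succinyl-CoA:3-oxoacid CoA transferase, the enzyme that activates acetoacetate and that liver lacks. Its level was 1358, 1352 and 1500 CPM in the WT hearts and 1457, 1331, 1410 and 1283 CPM in the A178D hearts. Both genotypes covered much the same range, and the lowest value was that of A178D replicate 4. On the log2 scale *Oxct1* differed by -0.03, with a 95% interval of -0.18 to 0.12 (adjusted p = 0.854, edgeR quasi-likelihood F test, Benjamini-Hochberg). These hearts did not exclude a difference within these bounds.

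*Acat1* encodes the mitochondrial acetoacetyl-CoA thiolase, which splits acetoacetyl-CoA and also serves isoleucine breakdown. Its level was 831, 798 and 905 CPM in WT and 941, 873, 847 and 898 CPM in A178D hearts. The ranges overlapped, although all 4 A178D hearts stood above the WT mean of 845 ± 54.8 CPM (SD, n = 3). Its log2 fold change was 0.07 (95% interval -0.07 to 0.22), and *Acat1* was not called (adjusted p = 0.626, edgeR quasi-likelihood F test, Benjamini-Hochberg).

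Within the same heart, the level of *Bdh1* relative to that of *Oxct1*, both in CPM per kilobase of transcript, was 0.174, 0.189 and 0.167 in WT and 0.220, 0.237, 0.213 and 0.270 in A178D. The means of this ratio were 0.177 ± 0.0112 (SD, n = 3) and 0.235 ± 0.0255 (SD, n = 4). No test was made of the ratio, which repeats the higher level of *Bdh1* against a partner whose own level overlapped between the genotypes. For *Acat1* relative to *Oxct1* the means were 0.624 ± 0.0115 (SD, n = 3) and 0.674 ± 0.0419 (SD, n = 4), and the hearts overlapped.

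The list of ketone body synthesis and use held 12 genes, of which 9 were tested. Only *Bdh1* was called, 7 of the 9 had a log2 fold change above 0 and the median was 0.07. *Oxct1* had the highest level of the list per kilobase, 393 CPM per kilobase over the 7 hearts. *Oxct2a* and *Oxct2b*, the transferase genes of the male germ line, had 0 counts in all 7 libraries, and 3 counts would have been 0.0550 to 0.0926 CPM.

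*Slc16a1* encodes the monocarboxylate transporter MCT1, which carries ketone bodies, lactate and pyruvate across the cell membrane together with a proton. Its level was 345, 332 and 346 CPM in WT and 302, 294, 296 and 314 CPM in A178D hearts. All 4 A178D hearts lay below all 3 WT hearts. The difference did not pass the threshold, with a log2 fold change of -0.18 ± 0.06 (SE; adjusted p = 0.171, edgeR quasi-likelihood F test, Benjamini-Hochberg). The 95% interval of this gene alone, without adjustment for the number of genes, was -0.31 to -0.04. *Slc16a1* was not called in any of the 17 alternative settings, in which the adjusted p ranged from 0.0778 to 0.407.

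Of the 13 genes for monocarboxylate transport and ketone sensing, 10 were tested, 0 were called higher and 1 was called lower. At an unadjusted p under 0.05 edgeR listed 3 of them, against 16.7% of all tested genes. The called gene was *Slc16a7*, which encodes MCT2, a carrier with a high affinity for pyruvate and ketone bodies. Its level was 4.58, 7.52 and 8.86 CPM in WT and 3.52, 3.83, 4.19 and 3.61 CPM in A178D hearts, far lower per kilobase than that of *Slc16a1* (0.470 against 71.9 CPM per kilobase over the 7 hearts). The A178D hearts lay together just under WT replicate 1, and the other WT hearts stood clearly above. The genotypes differed by -0.88 ± 0.19 on the log2 scale (SE; adjusted p = 0.0317, edgeR quasi-likelihood F test, Benjamini-Hochberg). Of the 7 fits that left out 1 heart, only that without WT replicate 1 called *Slc16a7*, with an adjusted p of 0.0015. Of the others, leaving out WT replicate 3 gave 0.165, WT replicate 4 gave 0.167, A178D replicate 1 gave 0.104, A178D replicate 2 gave 0.067, A178D replicate 3 gave 0.0586 and A178D replicate 4 gave 0.0517. With limma-voom it was 0.0751 and with offsets for transcript length and GC content 0.0714. *Ldhb*, the gene of the heart-type lactate dehydrogenase subunit, had the highest level of the list, 982 CPM per kilobase. *Slc5a8*, a sodium-coupled monocarboxylate carrier, had 0 counts in all 7 libraries.

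*Abat* encodes GABA transaminase, the mitochondrial enzyme that turns GABA into succinic semialdehyde, and it lies on chromosome 16 from 8513429 to 8621568 on the plus strand. Its level was 42.7, 30.6 and 25.4 CPM in the WT hearts numbered 1, 3 and 4. In the A178D hearts numbered 1 to 4 it was 52.3, 50.9, 53.0 and 51.2 CPM. The A178D hearts were close together and all above the WT hearts, which were spread widely, with WT replicate 1 nearest to the A178D values. The means were 32.9 ± 8.91 CPM (SD, n = 3) and 51.8 ± 0.972 CPM (SD, n = 4). The change from WT to A178D was 0.65 ± 0.13 on the log2 scale (SE; adjusted p = 0.0205, edgeR quasi-likelihood F test, Benjamini-Hochberg), a ratio of 1.57 with a 95% interval of 1.29 to 1.92. Among the 8 genes it had the largest log2 fold change in size, and among all tested genes it ranked 618 by that size and 155 by p. This call was also lost when some single hearts were left out. The same edgeR test gave an adjusted p of 0.133 with WT replicate 3 left out, 0.0903 with WT replicate 4 left out, 0.064 with A178D replicate 1 left out and 0.0563 with A178D replicate 3 left out, whereas without WT replicate 1 it was 0.000207 and the log2 fold change was 0.89. Over the 7 fits the adjusted p ranged from 0.000207 to 0.133 and the log2 fold change from 0.50 to 0.89.

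*Aldh5a1* encodes succinic semialdehyde dehydrogenase, which completes the shunt by forming succinate. Its level was 64.1, 59.4 and 63.9 CPM in WT and 60.6, 65.5, 69.2 and 63.6 CPM in A178D hearts. The ranges overlapped, with a log2 fold change of 0.05 and a 95% interval of -0.10 to 0.21 (adjusted p = 0.767, edgeR quasi-likelihood F test, Benjamini-Hochberg). Per kilobase, *Abat* was at 0.812, 0.627 and 0.484 of the level of *Aldh5a1* in the WT hearts and at 1.05, 0.945, 0.932 and 0.980 in the A178D hearts. On this scale the transaminase transcript was the scarcer of the pair in each WT heart. In A178D hearts both were at about the same level per kilobase. In CPM, not divided by length, *Abat* was below *Aldh5a1* in every heart of both genotypes. The ratio was not tested.

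The GABA list held 16 genes, of which 11 were tested, and *Abat* was the only one called. Of the 11, *Slc6a13* passed the count minimum through A178D hearts alone. Among the other 10 genes, 4 were above 0 and 6 below, the median log2 fold change was -0.02, and 4 had an unadjusted p under 0.05 (16.7% over all tested genes). *Glul*, the gene of glutamine synthetase, had the highest level per kilobase, 168 CPM per kilobase. It was not called (log2 fold change -0.29, adjusted p = 0.134, edgeR quasi-likelihood F test, Benjamini-Hochberg). *Gad1*, *Gad2* and *Slc6a13* were chosen for naming after their values were seen. *Gad1* and *Gad2*, which encode the glutamate decarboxylases that make GABA, were under the count minimum, and *Gad2* had a single count in WT replicate 1 and 0 in the other hearts. *Slc6a13*, the gene of the GABA carrier GAT2, had 2, 4 and 0 counts in WT and 8, 13, 16 and 10 counts in A178D hearts. It was not called. Since only A178D hearts held 10 or more counts, its entry among the tested genes already depended on the higher counts of that genotype. No ratio or p of *Slc6a13* is given in the text.

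The 10 genes from 2-oxoglutarate to succinate and fumarate were all tested. They cover the steps from 2-oxoglutarate to succinate, which the GABA shunt passes by and which include the succinyl-CoA used in ketone activation, and succinate dehydrogenase, which follows where the shunt rejoins the cycle. None was called higher or lower by edgeR, 1 had an unadjusted p under 0.05, 5 were above 0 and 5 below, and the median was -0.01. The gene with the highest level per kilobase was *Sdhb*, an iron-sulphur subunit of succinate dehydrogenase, with 971 CPM per kilobase.

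**Figure D1:**
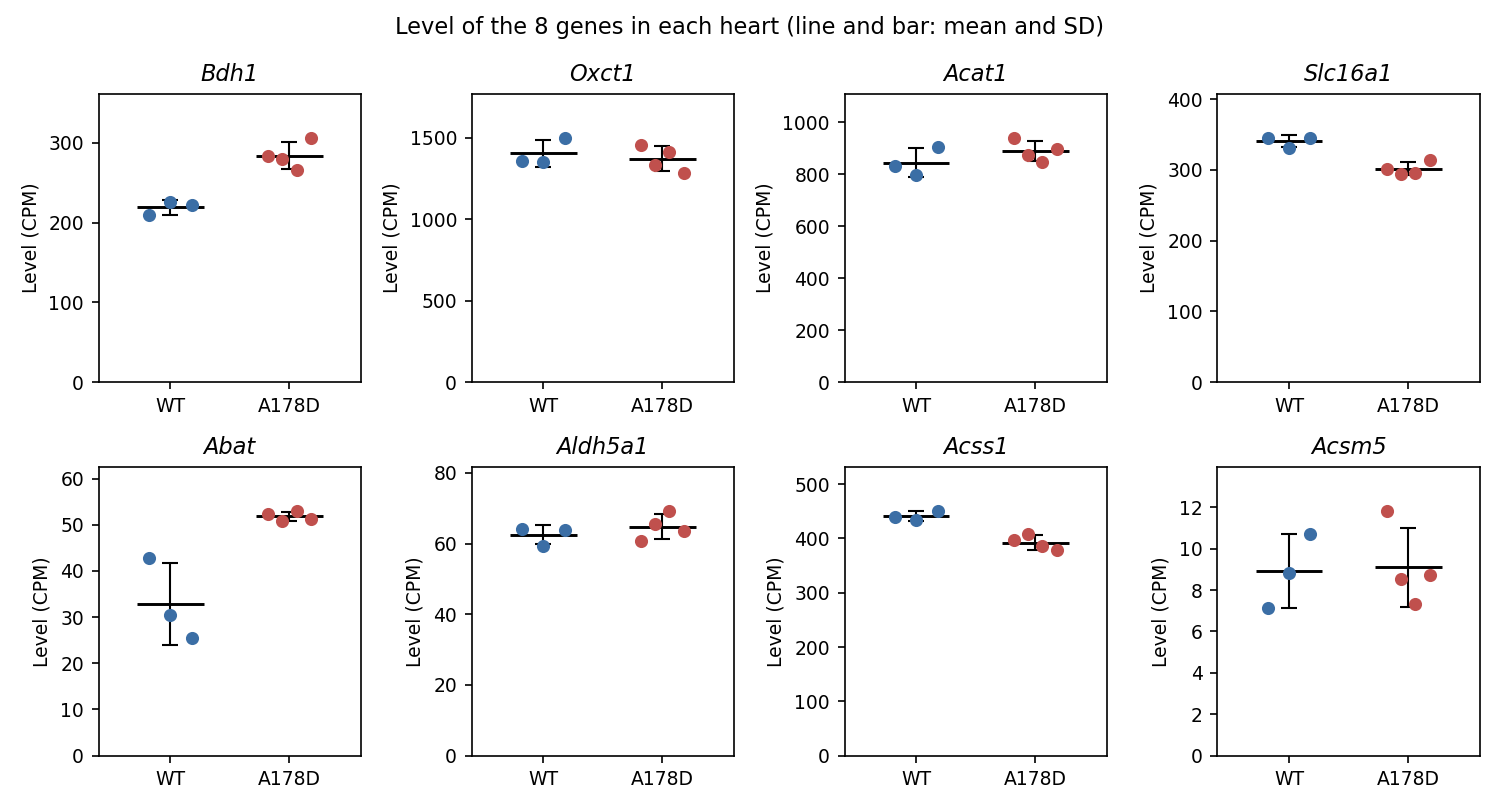
Level of the 8 genes in CPM (vertical axes from 0) in each WT (blue, n = 3) and A178D (red, n = 4) left ventricle, with 1 point per heart and the mean and SD as a line and bars. The A178D points lie above the WT points for Bdh1 and Abat, below them for Slc16a1 and Acss1, and among them for the other 4 genes.

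*Acss1* encodes the mitochondrial acetyl-CoA synthetase, which makes acetyl-CoA from acetate. Its level was 439, 434 and 450.4 CPM in WT and 396, 409, 386 and 378 CPM in A178D hearts. All A178D hearts were below all WT hearts. On the log2 scale the difference was -0.17 ± 0.06 (SE; adjusted p = 0.19, edgeR quasi-likelihood F test, Benjamini-Hochberg), so *Acss1* was not called, and the unadjusted 95% interval was -0.30 to -0.04. It was not called in any of the 17 alternative settings, in which the adjusted p ranged from 0.0887 to 0.368. *Acss2*, named here after its values were seen, encodes the cytosolic and nuclear counterpart and had 42.8, 47.8 and 49.3 CPM in WT and 57.4, 54.1, 59.6 and 55.9 CPM in A178D hearts. It was higher in every A178D heart than in every WT heart but was not called (log2 fold change 0.28, adjusted p = 0.0711, edgeR quasi-likelihood F test, Benjamini-Hochberg). Per kilobase, the level of *Acss1* was 7.68 ± 0.544 (SD, n = 3) times that of *Acss2* in WT and 5.61 ± 0.367 (SD, n = 4) times in A178D hearts.

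*Acsm5* belongs to the mitochondrial synthetases that activate medium-chain fatty acids. It had the lowest level of the 8 genes, 7.15, 8.82 and 10.7 CPM in WT and 11.8, 8.54, 7.31 and 8.71 CPM in A178D hearts. The genotypes overlapped throughout. Its log2 fold change was 0.03, with a 95% interval of -0.33 to 0.40, and the adjusted p was 0.95 (edgeR quasi-likelihood F test, Benjamini-Hochberg). Its sign turned to -0.10 without WT replicate 1 and to -0.12 without A178D replicate 1. Of the 10 short- and medium-chain synthetase genes, 6 were tested, 0 were called in either direction by edgeR and 3 had an unadjusted p under 0.05, which held for 16.7% of all tested genes. The median log2 fold change of the 6 was 0.09, with 4 above 0. *Acss1* had the highest level of this family per kilobase, 114 CPM per kilobase, and *Acsm4* had 0 counts in all libraries.

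On the scale of CPM per kilobase of transcript, the 8 genes covered a wide range. *Oxct1* was highest in both genotypes, with 398 ± 23.8 (SD, n = 3) for WT and 389 ± 22.1 CPM per kilobase (SD, n = 4) in A178D, and it ranked 161 among the tested genes. *Acat1* followed with 248 ± 16.1 and 261 ± 11.7 CPM per kilobase, and *Acss1* with 122 ± 2.36 and 108 ± 3.61 CPM per kilobase. These neighbours in the order did not overlap in any heart. On this scale the next places were exchanged between the genotypes. In CPM, not divided by length, *Slc16a1* was above *Bdh1* in every heart of both genotypes. The exchange thus rested on the transcript length taken for each gene. In WT hearts *Slc16a1* (74.9 to 78.2 CPM per kilobase) stood above *Bdh1* (66.9 to 72.5), whereas in A178D hearts *Bdh1* (85.0 to 98.2) stood above *Slc16a1* (66.4 to 71.0). The ratio of *Bdh1* to *Slc16a1* per kilobase was 0.911 ± 0.0546 (SD, n = 3) for WT and 1.33 ± 0.0460 (SD, n = 4) in A178D hearts, as a description without a test. *Aldh5a1* had 11.1 ± 0.472 and 11.5 ± 0.634 CPM per kilobase and *Abat* 7.09 ± 1.92 and 11.2 ± 0.210 CPM per kilobase. These 2 genes did not overlap in WT hearts, where *Abat* was lower, and they overlapped in A178D hearts. *Acsm5* was lowest, with 2.99 ± 0.600 and 3.05 ± 0.645 CPM per kilobase, and ranked 8815.

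**Figure D2:**
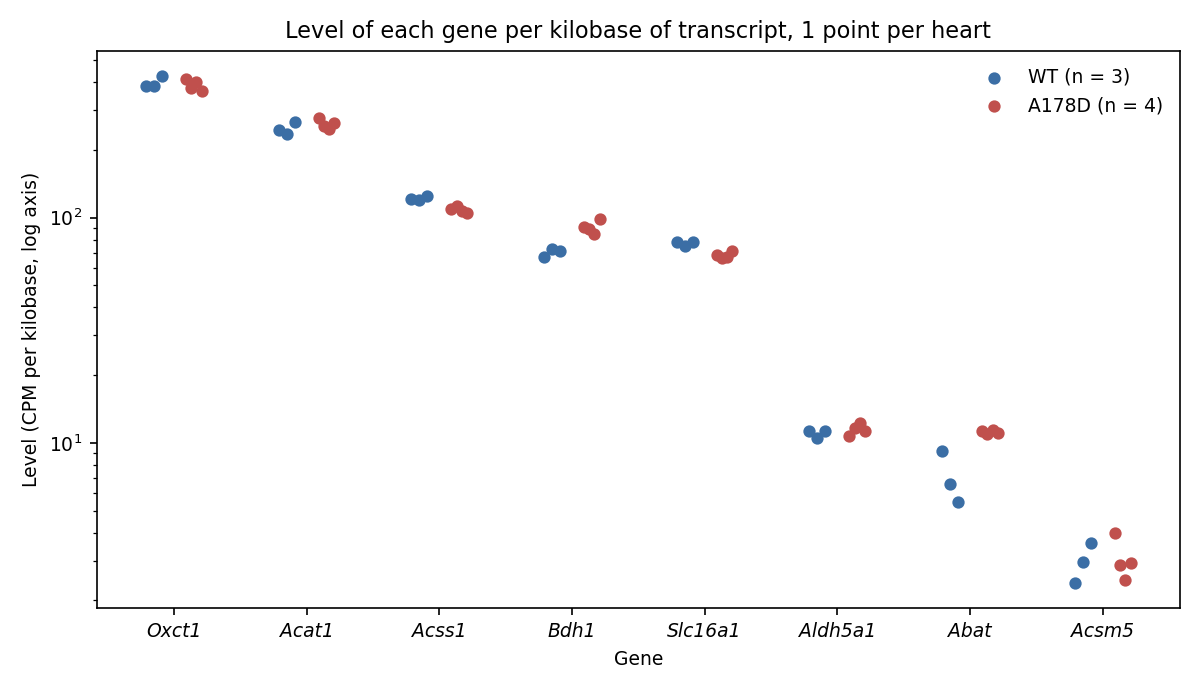
Level of the 8 genes in CPM per kilobase of transcript (vertical log axis), ordered by their mean, with 1 point per heart, blue for WT (n = 3) and red for A178D (n = 4). Bdh1 lies below Slc16a1 in the WT hearts and above it in the A178D hearts, and Abat reaches the level of Aldh5a1 only in the A178D hearts. Both orders depend on the transcript length taken for each gene.

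The list of butyryl-CoA and propionyl-CoA oxidation, which shares the acetoacetyl-CoA step with ketone bodies, held 13 genes, all tested, and 1 was called higher. This was *Ehhadh*, which encodes the peroxisomal bifunctional enzyme of fatty acid oxidation. It lies on chromosome 16 from 21761287 to 21787807, on the same chromosome as *Abat* and *Bdh1*. *Myh11* and *Mylk*, smooth muscle markers that were called lower, are on chromosome 16 as well. The called genes *Slc16a7*, *Plin2*, *Ppara* and *Plin5* lie on chromosomes 10, 4, 15 and 17. The share of all tested genes on chromosome 16 was not computed, and a link to the chromosome was not tested. The level of *Ehhadh* was 16.6, 15.7 and 22.0 CPM in WT and 31.5, 29.4, 31.3 and 27.9 CPM in A178D hearts. The genotypes did not overlap, and A178D differed from WT by 0.73 ± 0.11 on the log2 scale (SE; adjusted p = 0.00587, edgeR quasi-likelihood F test, Benjamini-Hochberg). *Ehhadh* was called in all 7 fits that left out 1 heart, with an adjusted p between 0.00215 and 0.0499. *Hadhb*, a subunit gene of the mitochondrial trifunctional protein, had the highest level of the list, 781 CPM per kilobase, and the median log2 fold change of the 13 genes was 0.04.

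Of the 20 regulators and PPAR-alpha targets, 19 were tested. Of these, 2 were called higher and 1 lower, beside 1.04% and 1.31% of all tested genes. At an unadjusted p under 0.05 edgeR listed 9 of the 19, against 16.7% of all tested genes. PPAR-alpha is a fatty acid receptor that drives genes of fat and ketone metabolism. Its own gene, *Ppara*, had 148, 136.5 and 152 CPM in WT and 105, 117, 115 and 109 CPM in A178D hearts. All A178D hearts were lower, with a log2 fold change of -0.38 ± 0.07 (SE; adjusted p = 0.0144, edgeR quasi-likelihood F test, Benjamini-Hochberg). The genes called higher encode the lipid droplet coat proteins perilipin 2 and perilipin 5. *Plin2* had 65.1 ± 8.62 CPM (SD, n = 3) for WT and 90.8 ± 4.14 CPM (SD, n = 4) for A178D (log2 fold change 0.48, standard error 0.09, adjusted p = 0.0144, edgeR quasi-likelihood F test, Benjamini-Hochberg). *Plin5* had 154 ± 19.4 (SD, n = 3) and 210.4 ± 9.50 CPM (SD, n = 4), with a log2 fold change of 0.45 ± 0.09 (SE; adjusted p = 0.0162, edgeR quasi-likelihood F test, Benjamini-Hochberg). In both genes every A178D heart was above every WT heart. The adjusted p of *Ppara* was 0.0772 without WT replicate 4 and 0.0566 without A178D replicate 1, that of *Plin2* 0.089 without WT replicate 3, and that of *Plin5* 0.0872 without WT replicate 3 and 0.0562 without A178D replicate 1. *Fabp3*, the gene of the heart fatty acid-binding protein, had the highest level of the list, 3459 CPM per kilobase, and was not called (adjusted p = 0.123, edgeR quasi-likelihood F test, Benjamini-Hochberg). Over the 19 genes, 15 were above 0 and the median was 0.14, while 50.5% of all tested genes were above 0 and their median was 0.00. *Pdk4*, a kinase gene of the same receptor's programme and chosen here after its values were seen, had 346, 136 and 497 CPM in WT and 624, 648, 637 and 403 CPM in A178D hearts. WT replicate 3 was lowest, and *Pdk4* was not called (adjusted p = 0.183, edgeR quasi-likelihood F test, Benjamini-Hochberg).

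Over the 7 lists together, 85 genes other than the 8 were in the table and 69 were tested. Of these, 3 were called higher and 2 lower, beside 1.04% and 1.31% of all tested genes. The log2 fold change was above 0 for 65.2% of the 69 genes and for 50.5% of all tested genes, and the medians were 0.06 and 0.00. Without *Slc6a13*, 44 of 68 genes were above 0 and their median was 0.05.

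**Figure D3:**
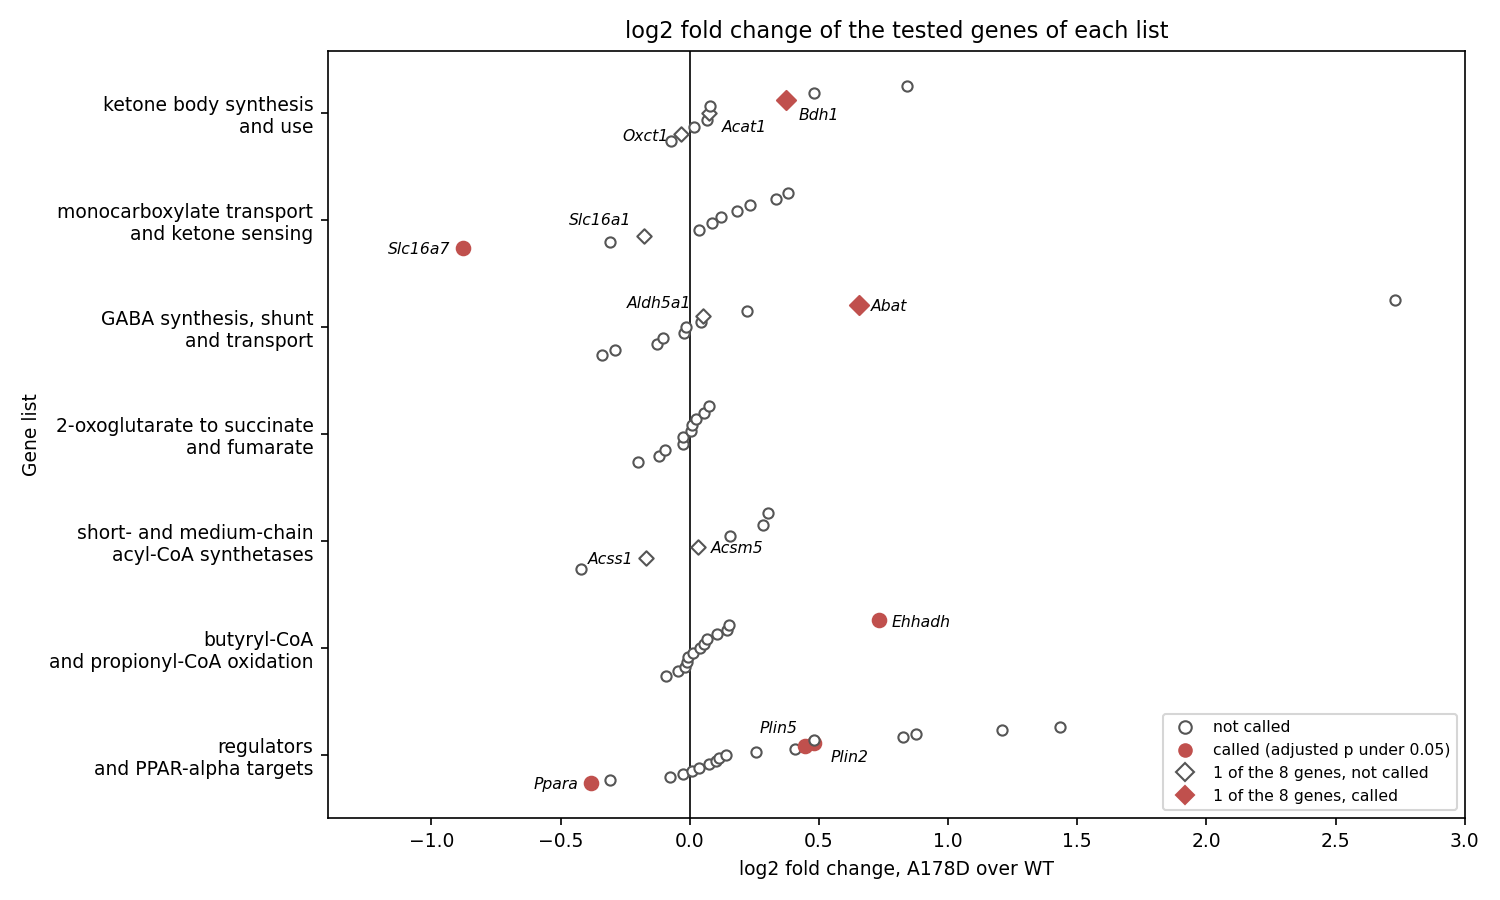
The log2 fold change (A178D over WT, horizontal axis) of each tested gene in the 7 gene lists (vertical axis), with diamonds for the 8 genes, red for genes called at an adjusted p under 0.05 and open symbols for the others. Among the 8 genes Bdh1 (0.37) and Abat (0.65) were called, and among the other genes Ehhadh, Plin2 and Plin5 on the higher side and Slc16a7 and Ppara on the lower side. Slc6a13 is among the tested genes of the GABA list but passed the count minimum through A178D hearts alone.

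Across the 7 hearts, the levels of *Bdh1* and *Abat* had a Pearson correlation of 0.73 (log2 CPM), and around the means of their genotypes it was -0.45. These are descriptions over 7 libraries that share the genotype difference. The hearts in which *Bdh1* was highest for their genotype were thus not those in which *Abat* was highest. Among 12211 other genes, each averaging 50 counts or more, those with the highest correlation with *Bdh1* across all 7 hearts were *Tmem141* (0.989), *2810006K23Rik* (0.984), *Mrps10* (0.981), *Adprhl1* (0.979) and *Fam69b* (0.977). Highest by the same measure for *Abat* were *Slc41a3* (0.997), *Klhl30* (0.993), *Colq* (0.989), *Efhd1* (0.986) and *Sh3bp5* (0.983). Neither set contained a gene of the other. These coefficients describe 7 hearts and were not tested.

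Markers of cell types were read beside these results. The 10 cardiomyocyte markers summed to 108300 ± 3181 CPM (SD, n = 3) for WT and 107900 ± 4577 CPM (SD, n = 4) for A178D, with *Myh6* the most abundant and none at 0, and 1 of the 10, *Mybpc3*, was called higher. Its adjusted p in the edgeR quasi-likelihood F test was 0.111 without WT replicate 3, 0.12 without WT replicate 4, 0.0872 without A178D replicate 1 and 0.051 without A178D replicate 3. All 12 markers of smooth muscle and pericytes had a log2 fold change below 0, with a median of -0.43, and 6 were called lower (*Myh11*, *Acta2*, *Tagln*, *Cnn1*, *Mylk* and *Lmod1*). Their sum was 1564, 1561 and 1499 CPM in WT and 1171, 1290, 1366 and 1097 CPM in A178D hearts, so every A178D heart was lower, with *Abcc9* the most abundant and no marker at 0. Of these 6 calls, those of *Acta2* and *Tagln* held in all 7 fits that left out 1 heart. *Myh11* was not called without WT replicate 3 (adjusted p = 0.0501, edgeR quasi-likelihood F test) or WT replicate 4 (0.0547). *Mylk* was called only without A178D replicate 3 or 4, *Cnn1* only without A178D replicate 4 and *Lmod1* only without A178D replicate 2, and the highest adjusted p of these 3 genes over the 7 edgeR fits was 0.111, 0.109 and 0.142. The part of the lower sum of these markers in the levels of *Bdh1*, *Abat*, *Slc16a1* and *Acss1* was not tested. The 10 macrophage markers summed to 329, 431 and 392 CPM in WT and 464, 467, 418 and 474.5 CPM in A178D hearts, 9 of them were above 0, *Lyz2* was the most abundant and the only one called (higher), and none was at 0. The 10 fibroblast markers summed to 2565, 2858 and 2413 CPM in WT and 2974, 2883, 2781 and 2937 CPM in A178D hearts, *Gsn* was the most abundant, *Col3a1* was called higher and none was at 0. Over the 7 fits that left out 1 heart, *Lyz2* was called only without A178D replicate 3 or 4 and *Col3a1* only without WT replicate 1, WT replicate 4 or A178D replicate 4, and their highest adjusted p was 0.117 and 0.113 (edgeR quasi-likelihood F test). The 8 atrial markers summed to 332, 267 and 185 CPM in WT and 603, 440.3, 394 and 668 CPM in A178D hearts, most of it from *Nppa* (182 CPM on average in WT and 451 CPM in A178D hearts), the only one called (higher), and none was at 0. Of the 6 tested atrial markers 3 were above 0 and 3 below, and *Myl7* and *Sln*, named after their values were seen, had at most 8 counts (*Myl7* in WT replicate 1) and 4 counts (*Sln* in A178D replicate 1) in any heart. Without single hearts the adjusted p of *Nppa* was 0.0555 (A178D replicate 1), 0.086 (WT replicate 3) and 0.0598 (WT replicate 4) in the same edgeR quasi-likelihood F test. The part of these lists in the results was not tested either.

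Among the other lists, the 10 endothelial markers summed to 1828 ± 36.6 (SD, n = 3) and 1860 ± 76.8 CPM (SD, n = 4), with *Fabp4* the most abundant and *Flt1* called lower. *Flt1* was not called without WT replicate 3 (adjusted p = 0.102, edgeR quasi-likelihood F test), WT replicate 4 (0.0934), A178D replicate 1 (0.0584) or A178D replicate 2 (0.0617). The 8 adipocyte markers summed to 302 ± 57.2 (SD, n = 3) and 249 ± 9.90 CPM (SD, n = 4), nearly all of it *Plin4*, and 0 of the 5 tested were called, with 1 at an unadjusted p under 0.05. The 7 erythroid markers in the table summed to 110.4 ± 3.88 (SD, n = 3) and 123 ± 26.5 CPM (SD, n = 4), with *Hbb-bs* the most abundant and none called. The GABA shunt is prominent in neurons and ketone body synthesis in liver, so these tissues were looked at as well. The 10 neuronal and glial markers summed to only 15.3 ± 1.76 CPM (SD, n = 3) for WT and 17.7 ± 3.31 CPM (SD, n = 4) for A178D, and *Snap25*, *Syt1*, *Th* and *Gfap* were under the count minimum. The 8 hepatocyte markers summed to 0.654 ± 0.366 (SD, n = 3) and 0.496 ± 0.199 CPM (SD, n = 4), with *Ttr* the most abundant and *Cyp3a11*, *Fgb* and *Tat* at 0 counts.

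RefSeq promoter windows (GRCm38.p6, 250 bases before to 50 after a start) were on hand for 6 of the 8 genes, with 2 windows for *Bdh1* and none for *Abat* and *Acat1*. They were searched on both strands for AGGTCA (a core letter group bound by many nuclear receptors, present in 16.3% of 32851 windows of the mouse genome), its direct repeat with a spacer of 1 base (0.0396%), the longer element of oestrogen-related receptors, which contains AGGTCA (0.423%), CACGTG (7.15%), CCAAT (37.4%) and TATAAA (13.6%). CACGTG was found in *Slc16a1* (chr3:104638464-104638469) and *Acsm5* (chr7:119526133-119526138), and CCAAT in *Aldh5a1* and *Acsm5*. Neither window of *Bdh1* held any of these motifs, which says only that these letters are not in the windows. The bases before the starts of *Bdh1* are printed because it was the called gene with a promoter entry, and those of *Slc16a1*, which was lower in every A178D heart but not called, for comparison, with CACGTG in capitals. The earlier *Bdh1* stretch (chr16:31422047-31422296, plus strand) ends 17 bases inside the first exon of the annotated gene. The later one (chr16:31428503-31428752, plus strand) lies within *Bdh1* and within an exon of the antisense gene *Gm15743*. The *Slc16a1* stretch (chr3:104638414-104638663, plus strand) lies upstream of the annotated gene.
*Bdh1* earlier start: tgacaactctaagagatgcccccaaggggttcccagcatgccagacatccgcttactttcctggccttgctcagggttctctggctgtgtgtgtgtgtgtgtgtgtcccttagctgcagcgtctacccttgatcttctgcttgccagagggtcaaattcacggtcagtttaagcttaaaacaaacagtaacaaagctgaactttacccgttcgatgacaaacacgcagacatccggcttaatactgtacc
*Bdh1* later start: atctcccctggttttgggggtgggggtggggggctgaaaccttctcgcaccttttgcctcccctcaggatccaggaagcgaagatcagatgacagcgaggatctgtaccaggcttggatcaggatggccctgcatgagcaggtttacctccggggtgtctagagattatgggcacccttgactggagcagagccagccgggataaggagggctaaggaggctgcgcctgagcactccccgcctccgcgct
*Slc16a1*: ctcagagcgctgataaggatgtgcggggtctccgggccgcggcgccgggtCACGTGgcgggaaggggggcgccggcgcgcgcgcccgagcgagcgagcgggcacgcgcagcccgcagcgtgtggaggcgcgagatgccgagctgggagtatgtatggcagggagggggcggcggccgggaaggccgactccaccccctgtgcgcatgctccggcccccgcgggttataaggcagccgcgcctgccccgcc

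Exons of 6 annotated genes on the opposite strand overlap exons of 5 of the 8 genes: *Gm15743* with *Bdh1* (533 bases), *BC037032* with *Oxct1* (467 bases), *9330162012Rik* and *4932702P03Rik* with *Aldh5a1* (203 and 796 bases), *E130215H24Rik* with *Acss1* (113 bases) and *Pdilt* with *Acsm5* (104 bases). Of these 6, only *Pdilt* had an entry in the count table, with 0 to 8 counts. The libraries keep the strand, but the strand setting of the counting is not given in the sources used here, so reads of the overlapping bases cannot be assigned to a strand.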

How the data were processed

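Stranded poly(A) libraries, 1 per heart, were sequenced from both ends for the left ventricle of 3 WT and 4 A178D mice. The authors deposited raw counts per gene, without normalization. The submitters' processing notes name bcl2fastq 2.18.0.12, HISAT2 2.1.0, SAMtools 1.6, DESeq2 1.26.0 and GRCm38. The counting program and annotation are not given in the sources used here. The second deposited table, counts divided by 1 size factor per library, was not used, and neither table holds columns of the authors' own comparisons. Only 17.6 to 20.3% of the counts from 1 to 20 in a library were odd, so both ends of most fragments appear to have been counted, and low counts stand for fewer molecules.

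Names, positions and the transcript lengths behind CPM per kilobase (the longest basic protein-coding transcript) came from GENCODE M21, and 87 of the kept entries had no name. Of 21257 entries, 442 in 219 sets had identical counts and at least 30 of them in total. Each set was kept once, as were low entries repeating an identifier and its counts, which left 20927. No library copied another. Genes in which 3 or more libraries held 10 or more counts were fitted by genotype alone in R 4.3.3, with TMM factors and the functions glmQLFit and glmQLFTest of edgeR 4.0.16. Intervals are at 95% from the standard error and degrees of freedom of that fit, and p-values reflect the spread between hearts. Limits for 0 counts are 3 counts per library and cover counting error only.

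The 8 members and the lists were chosen with earlier results of these data known. Named genes are the 8 and, from each list, every called gene, the gene highest per kilobase and any gene with 0 counts, then the 5 genes most correlated with each called member. Some genes that this rule names are not reported here. Other genes are said in the text to have been chosen after their values were seen. The lists are ketone body synthesis and use, monocarboxylate transport and ketone sensing, the GABA genes, 2-oxoglutarate to fumarate, acyl-CoA synthetases, butyryl-CoA and propionyl-CoA oxidation, regulators with PPAR-alpha targets, and markers of 10 cell types. A planned comparison of protein sequences was not run.

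Alternatives were DESeq2 1.42.0, its size factors in edgeR, limma-voom (limma 3.58.1), a block for the replicate number, no filter, a filter of 10 counts in all libraries, the threshold 0.01, each library left out, the table as deposited, counts halved and rounded up, and offsets for transcript length and GC content (mgcv 1.9.3, basis size 6). The fits were tested on simulated data. Tables and plots used Python 3.11.15, pandas 2.3.3, numpy 2.4.6 and matplotlib 3.10.9.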

Additional observations from a re-analysis of the deposited data

Results flagged for a closer look

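Dixon's ratio was computed in the 4 A178D hearts for 24 genes, the 8 and the other called genes of the lists, and 1 value stood apart, where chance gives about 1 group in 20. *Col3a1*, a collagen gene of the fibroblast markers, had 323.8 CPM in A178D replicate 2, while the A178D hearts began at 302.9 CPM (ratio 0.864). None of the 8 ketone body and GABA-shunt genes had such a value in these hearts, and the groups of 3 WT hearts were not examined in this way.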

How the results depend on the processing

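*Bdh1* and *Abat* were each called in 9 of the 10 alternatives that kept all 7 hearts. The exception for both was an adjusted p under 0.01, at which 0 of the 8 genes were called, with 24 genes higher and 40 lower over all genes, where fewer genes pass by construction. With each heart left out in turn, the number of the 8 genes called higher ranged from 0 to 2 and lower from 0 to 0, while over all genes 22 to 215 were called higher and 31 to 238 lower. *Bdh1* was called in 4 and *Abat* in 3 of these 7 fits. DESeq2 called 306 genes higher and 380 lower against 145 and 182 with edgeR, and offsets for length and GC content gave 290 lower. The cause was not tested. Without single hearts, the log2 fold change of *Oxct1* ranged from -0.065 to 0.016, turning its sign without WT replicate 4, and that of *Acsm5* from -0.119 to 0.186, turning its sign to -0.100 without WT replicate 1 and to -0.119 without A178D replicate 1. No other of the 8 genes changed its sign in any alternative. With the replicate number as a block, 124 genes were higher and 147 lower, and 2 of the 8 genes were called higher. Hearts with the same number did not deviate together (correlations 0.00313, -0.0402 and -0.0424). These few values gave no sign that the numbers pair the animals, but they cannot exclude it. The block changed no call among the 8 genes. Among the called marker genes, *Mybpc3*, *Flt1* and *Cnn1* had an adjusted p of 0.0574, 0.0728 and 0.0617 with the block (edgeR). Depth limits the genes under the count minimum and *Slc6a13*.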
